A study of Mus musculus with 18 samples.

Results

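The genes described are 10 regulators and markers of adipogenesis, the differentiation of mesenchymal cells into fat cells, measured by bulk RNA-seq in O9-1 cells. They are Pparg, Cebpa, Cebpb, Cebpd, Lpl, Fabp4, Adipoq, Cd36, Plin2 and Zfp423, a set chosen by name and found by matching the Ensembl identifiers of the count files to mouse symbols. All 10 were found among 55335 gene identifiers, and 7 of them carried enough reads to be described in at least 1 day of culture. O9-1 is an established line of neural crest (NC) cells from mouse embryos, labelled wildtype, which was cultured here in osteoblast differentiation medium. Ctrl+vehicle cells received a scramble siRNA and no FGF2, Ctrl+FGF2 cells received the scramble siRNA and FGF2, and Y/T dKD+FGF2 cells received FGF2 with siRNA pools against Yap and Taz. Each group was sequenced in 3 replicates at d2.5 and in 3 at d5, giving 18 libraries. The medium was meant for bone and not for fat, no group combined the knockdown with vehicle, and the labels give each day as a batch of its own, so that day and batch cannot be told apart.

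Adipogenesis runs through a cascade of transcription factors. C/EBPβ and C/EBPδ are induced early and activate PPARγ and C/EBPα, which maintain each other and switch on genes of lipid uptake, transport and storage. Zfp423 is a zinc finger factor that marks commitment to preadipocytes. In the mesenchyme, adipogenic and osteogenic programmes are often opposed, and Yap and Taz (Taz is encoded by Wwtr1) are transcriptional co-activators of the Hippo pathway that have been linked to both.

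The libraries held from 10377151 to 14698525 counts on genes, with a median of 12330911. Levels are given as CPM, the read count relative to the TMM-scaled library size, scaled over the 18 libraries together, and a gene was called where edgeR's quasi-likelihood test gave a Benjamini-Hochberg adjusted p under 0.05 over all genes tested. Both siRNA targets were lower in every Y/T dKD+FGF2 library than in every Ctrl+FGF2 library of the day. Yap1 was at 131.6, 126.0 and 128.6 CPM in Ctrl+FGF2 and, with the knockdown, at 65.3, 65.4 and 69.6 CPM at d2.5, and the fold against Ctrl+FGF2 was 0.515 at d2.5 and 0.460 at d5. Wwtr1 was at 221.2, 218.8 and 224.7 CPM against 141.9, 130.0 and 135.0 CPM at d2.5, with folds of 0.608 and 0.575 at d2.5 and d5. Against Ctrl+vehicle, which had less Wwtr1 than Ctrl+FGF2 at d2.5, the knockdown cells were at -0.06 ± 0.04 on the log2 scale for Wwtr1 at d2.5 (adjusted p = 0.122) and overlapped it. The replicates are separate samples in the labels, which do not say that they came from separate cultures, so p-values measure the spread between these samples.

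The labelled cell type was checked against its markers. Of 10 NC markers, Sox10 and Foxd3 had no count in any of the 18 libraries, and Ngfr had 16 counts in all, while Twist1 (15087 counts), Snai2 (13384) and Tfap2a (9661) were abundant. Of 7 markers of the mature adipocyte, Cidec, Retn and Cfd had no count, Lep had 1, Adipoq and Plin1 had 3 each, and Slc2a4 had 31 over the 18 libraries. Of the markers of other cells that express some of these genes, Lyz2 and Tyrobp (macrophage) and Cdh5, Tie1 and Cldn5 (endothelium) had no count, Adgre1, Aif1, Kdr and Emcn had 1 each, Tek had 7, Ptprc 8 and Fcer1g 28. Cd68 (413 counts), Pecam1 (374) and Csf1r (171) had more, and they moved between groups. Csf1r had 1319 reads on the opposite strand, and their part in its 171 counts was not tested. With FGF2 at d2.5 Pecam1 was lower (log2 fold change -1.55, adjusted p = 1.32e-06) and so was Csf1r (-2.57, adjusted p = 7.42e-06), Pecam1 was higher with FGF2 at d5 (1.40, adjusted p = 0.00186), and Cd68 was higher with the knockdown at d5 (1.07, adjusted p = 0.00197). Over whole lists, the summed level of 8 macrophage markers stayed between 1.16 and 5.70 CPM and that of 7 endothelial markers between 0.603 and 3.87 CPM per library, with at least 6 of each list under 10 counts in every library of a group. The summed level of 8 osteoblast markers, most of it from Col1a1 (3073163 counts) and Spp1 (992676), moved with the groups. At d2.5 it was between 17166 and 17506 CPM in Ctrl+vehicle, between 9599 and 9846 CPM in Ctrl+FGF2 and between 11677 and 12202 CPM in Y/T dKD+FGF2. At d5 the ranges were 32313 to 34532, 17830 to 19217 and 24507 to 26181 CPM in the same order. The single markers went both ways. FGF2 raised 2 and lowered 5 of 7 tested at d2.5 and raised 4 and lowered 4 of 8 at d5, with Dmp1 higher (5.25 and 1.86) and Col1a1 lower (-2.53 and -0.93) on both days. Among the others lowered were Alpl at d2.5 (-9.61, adjusted p = 2.52e-29) and Ibsp at d5 (-1.80, adjusted p = 6.66e-07). The Alpl fold was 0.00128, with at most 1971 counts in any library, so its size rests on few reads in Ctrl+FGF2. The knockdown raised 4 and lowered 1 of 7 at d2.5 and raised 8 of 8 at d5. Over all genes tested, FGF2 raised 33.5% and lowered 34.1% at d2.5 and raised 23.5% and lowered 23.7% at d5. For the knockdown the shares raised and lowered were 10.8% and 13.6% at d2.5 and 15.6% and 16.1% at d5. The part of osteoblast differentiation and of the macrophage and endothelial markers in the differences given here was not tested, and in bulk libraries fewer expressing cells and less RNA per cell cannot be told apart.

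The promoters of 7 of the 10 genes are in the RefSeq table used here (GRCm38.p6), with 10 windows, while Lpl, Fabp4 and Cebpd have no entry. Printed are the 250 bases before the transcription start of 4 windows, all 5′ to 3′ on the strand of the gene. They are those of Cebpb and Plin2, which went from lower to higher under the knockdown between the days, and starts 1 and 3 of Pparg, whose reads were counted over all of its starts together. Capitals mark matches, on either strand, to AGGTCA (the core element bound by PPARγ and other nuclear receptors) or TTGCNNAA (the C/EBP palindrome TTGCGCAA with its first 4 and last 2 bases kept).
Cebpb, chr2:167688665-167688914, plus strand: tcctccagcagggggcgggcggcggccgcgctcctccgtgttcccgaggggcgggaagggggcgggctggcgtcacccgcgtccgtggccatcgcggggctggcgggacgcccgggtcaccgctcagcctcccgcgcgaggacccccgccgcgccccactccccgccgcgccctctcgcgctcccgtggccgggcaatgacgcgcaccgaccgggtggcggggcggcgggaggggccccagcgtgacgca
Plin2, chr4:86670060-86670309, minus strand: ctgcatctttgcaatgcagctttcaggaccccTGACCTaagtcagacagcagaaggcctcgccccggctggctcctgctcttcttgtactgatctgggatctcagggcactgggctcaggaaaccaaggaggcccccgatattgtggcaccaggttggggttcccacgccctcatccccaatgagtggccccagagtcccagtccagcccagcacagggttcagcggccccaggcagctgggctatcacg
Pparg start 1, chr6:115360894-115361143, plus strand: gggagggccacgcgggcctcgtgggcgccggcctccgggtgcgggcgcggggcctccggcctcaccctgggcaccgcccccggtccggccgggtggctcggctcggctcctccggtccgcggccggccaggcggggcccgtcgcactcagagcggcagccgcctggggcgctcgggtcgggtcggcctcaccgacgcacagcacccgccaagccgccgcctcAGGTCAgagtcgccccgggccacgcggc
Pparg start 3, chr6:115421816-115422065, plus strand: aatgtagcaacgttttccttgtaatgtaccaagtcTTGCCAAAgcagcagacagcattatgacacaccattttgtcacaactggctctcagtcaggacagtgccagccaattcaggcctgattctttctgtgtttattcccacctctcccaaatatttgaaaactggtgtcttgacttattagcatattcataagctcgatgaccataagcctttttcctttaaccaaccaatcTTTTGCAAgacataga
Plin2 held 1 AGGTCA, on the opposite strand, and Pparg start 1 held 1 on its own strand. Pparg start 3 held 2 matches to TTGCNNAA, TTGCCAAA and TTTTGCAA, with GC content of 40.8% against 82.4% at start 1. Cebpb held none of the motifs searched, which were these with TTGCGCAA, GGAATG (TEAD, the partner of Yap and Taz), TGANTCA (AP-1) and CACGTG (E-box). None of the 10 windows held the TEAD, AP-1 or E-box motif or the full C/EBP palindrome. Over all 32851 windows of this length, 14.0% held the nuclear receptor element, 9.56% the partly fixed C/EBP motif, 12.6% the TEAD motif, 6.75% the AP-1 motif, 6.02% the E-box and 0.164% the full palindrome. Every match to the full palindrome is also one to the partly fixed motif. A match is a description of these letters and not of binding.

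Of the early factors, Cebpb (C/EBPβ, ENSMUSG00000056501.3, chr2:167688915-167690418 on GRCm38) was expressed in all groups. At d2.5 it was at 46.4, 53.1 and 53.4 CPM in the Ctrl+vehicle libraries, at 46.7, 52.8 and 49.1 CPM in Ctrl+FGF2 and at 43.0, 42.0 and 40.9 CPM in Y/T dKD+FGF2. At d5 it was at 36.9, 36.3 and 40.1 CPM in Ctrl+vehicle, at 46.9, 42.7 and 43.5 CPM in Ctrl+FGF2 and at 61.0, 58.2 and 55.6 CPM in Y/T dKD+FGF2. The knockdown libraries lay below both other groups at d2.5 and above both at d5. The FGF2 effect (Ctrl+FGF2 against Ctrl+vehicle) was a log2 fold change of -0.05 ± 0.06 (SE, adjusted p = 0.431) at d2.5 and of 0.24 ± 0.06 (adjusted p = 0.00390) at d5. The knockdown effect (Y/T dKD+FGF2 against Ctrl+FGF2) was -0.25 ± 0.06 (adjusted p = 0.00278) at d2.5 and 0.39 ± 0.06 (adjusted p = 5.68e-05) at d5. The knockdown effect thus had opposite signs on the 2 days, and the difference between the days was 0.64 ± 0.09 (adjusted p = 3.38e-06). Cebpb overlaps Tmem189 on the other strand. The unstranded counts held 6889 reads of Cebpb over the 18 libraries, fewer than the 10618 on its own strand, with 80 on the other. With these fewer reads the FGF2 call at d5 (0.13, adjusted p = 0.134) and the knockdown call at d2.5 (-0.18, adjusted p = 0.0625) were lost. The call of the FGF2 difference between days (0.15, adjusted p = 0.192, against 0.27) was lost too.

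Cebpd (C/EBPδ, ENSMUSG00000071637.5, chr16:15887286-15891031) moved more than Cebpb at d2.5. Its level there was 43.9, 44.5 and 44.2 CPM for Ctrl+vehicle, 39.7, 37.6 and 39.8 CPM for Ctrl+FGF2 and 22.3, 22.5 and 19.9 CPM for Y/T dKD+FGF2. At d5 it was 27.0, 27.2 and 31.5 CPM for Ctrl+vehicle, 61.9, 46.6 and 53.4 CPM for Ctrl+FGF2 and 41.9, 50.6 and 43.0 CPM for Y/T dKD+FGF2. At d2.5 the 3 groups did not overlap and fell in the order Ctrl+vehicle, Ctrl+FGF2, Y/T dKD+FGF2, while at d5 Ctrl+vehicle was lowest and the other groups overlapped. FGF2 lowered Cebpd at d2.5 (log2 fold change -0.19 ± 0.06 SE, adjusted p = 0.00300) and raised it at d5 (0.92 ± 0.10, adjusted p = 5.48e-07), and the FGF2 effects of the days differed by 1.09 ± 0.11 (adjusted p = 1.84e-09). The knockdown lowered it at d2.5 (-0.87 ± 0.06, adjusted p = 2.41e-11). At d5 the knockdown effect was -0.26 ± 0.09 with an adjusted p of 0.0395. That call was lost without Ctrl+FGF2 replicate 1 (-0.15, adjusted p = 0.210) or replicate 3 (-0.26, adjusted p = 0.0892), without Y/T dKD+FGF2 replicate 1 (-0.20, adjusted p = 0.171) or replicate 3 (-0.22, adjusted p = 0.140) and with DESeq2 (adjusted p = 0.0662). The knockdown effects of the days differed by 0.61 ± 0.12 (adjusted p = 0.000375).

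Pparg (ENSMUSG00000000440.12, chr6:115360951-115490399) encodes PPARγ, the nuclear receptor that is required for fat cells to form. At d2.5 it was at 18.8, 17.3 and 16.7 CPM in Ctrl+vehicle, at 16.6, 18.8 and 19.8 CPM in Ctrl+FGF2 and at 14.4, 16.4 and 13.3 CPM in Y/T dKD+FGF2. At d5 it was at 14.7, 14.5 and 14.1 CPM in Ctrl+vehicle, at 18.5, 19.7 and 18.3 CPM in Ctrl+FGF2 and at 12.6, 11.2 and 13.1 CPM in Y/T dKD+FGF2. The Y/T dKD+FGF2 libraries were the lowest on both days, and Ctrl+FGF2 lay above Ctrl+vehicle at d5 only. The FGF2 effect was 0.05 ± 0.09 (adjusted p = 0.619) at d2.5 and 0.40 ± 0.09 (adjusted p = 0.00116) at d5. The knockdown effect was -0.33 ± 0.09 (adjusted p = 0.00846) at d2.5 and -0.62 ± 0.09 (adjusted p = 3.72e-05) at d5, a fold of 0.649. At d2.5 the knockdown call was lost without Ctrl+FGF2 replicate 3 (-0.27, adjusted p = 0.0665) or without Y/T dKD+FGF2 replicate 3 (-0.26, adjusted p = 0.0785). The knockdown effects of the days differed by -0.30 ± 0.13 (adjusted p = 0.109).

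Cebpa (ENSMUSG00000034957.10, chr7:35119293-35121928), which encodes the partner of PPARγ in the mature cell, was scarce. At d2.5 the counts per library were 1, 3 and 3 for Ctrl+vehicle, 3, 3 and 5 for Ctrl+FGF2 and 2, 4 and 3 for Y/T dKD+FGF2, too few to be tested. At d5 they were 16, 21 and 19 for Ctrl+vehicle, 12, 6 and 4 for Ctrl+FGF2 and 13, 10 and 19 for Y/T dKD+FGF2. Ctrl+vehicle lay above all Ctrl+FGF2 libraries at d5, and Y/T dKD+FGF2 overlapped both. FGF2 lowered Cebpa at d5 (log2 fold change -1.37 ± 0.39 SE, adjusted p = 0.00706), a call that was kept without any 1 library (-1.95 to -1.10). The knockdown effect at d5 was 0.95 ± 0.41 (adjusted p = 0.0913), and it passed the threshold without Ctrl+FGF2 replicate 1 (1.52, adjusted p = 0.0184). The ratio of d5 to d2.5 in scaled counts was 10.4 (95% counting interval 4.72 to 27.0) for Ctrl+vehicle, 2.50 (1.16 to 5.71) for Ctrl+FGF2 and 5.22 (2.50 to 12.2) for Y/T dKD+FGF2. These intervals cover counting error only.

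**Figure D1:**
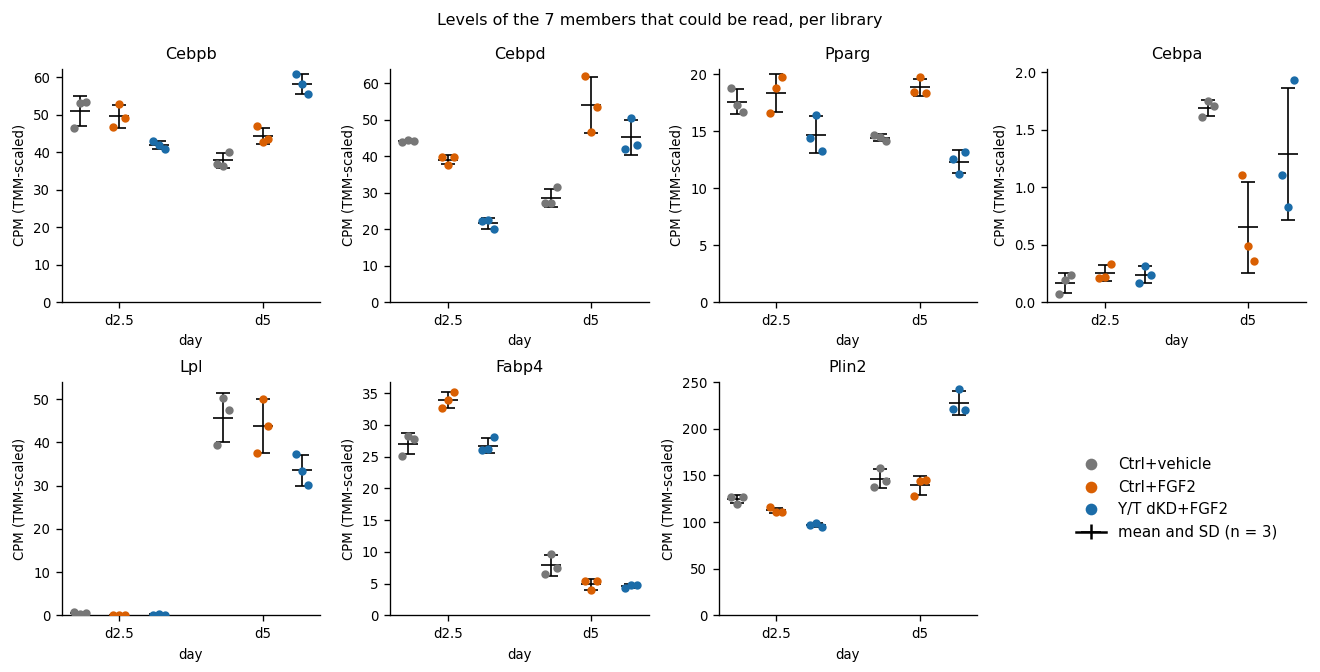
CPM of the 7 genes that could be read (linear axes from 0), with 1 point per library, the mean as a bar and the SD over 3 libraries as the error bar, by group and day. Lpl is near 0 at d2.5 and above 30 CPM in each d5 library, Fabp4 is lower at d5, and the Y/T dKD+FGF2 libraries of Plin2 are the lowest at d2.5 and the highest at d5.

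Among the genes of lipid uptake and storage, Lpl (lipoprotein lipase, which frees fatty acids from circulating triglyceride, ENSMUSG00000015568.16, chr8:68880491-68907448) changed most over the culture. At d2.5 its counts were 10, 5 and 8 for Ctrl+vehicle, 1, 0 and 0 for Ctrl+FGF2 and 2, 4 and 2 for Y/T dKD+FGF2, and it was not tested there. At d5 it was at 39.3, 50.2 and 47.5 CPM in Ctrl+vehicle, at 37.5, 49.9 and 43.7 CPM in Ctrl+FGF2 and at 37.3, 33.3 and 30.0 CPM in Y/T dKD+FGF2. Lpl thus went from at most 10 reads to between 295 and 613 reads per library in all 3 groups. The ratio of d5 to d2.5 was 85.9 in Ctrl+vehicle (95% counting interval 57.0 to 136) and 159 in Y/T dKD+FGF2 (80.2 to 368). In Ctrl+FGF2 it rested on a single d2.5 read, at 1886 with an interval of 338 to 74552. At d2.5 the ratio of Ctrl+FGF2 to Ctrl+vehicle was 0.0435 (0.00106 to 0.268) on 1 and 23 reads. At d5 the FGF2 effect was -0.05 ± 0.10 (adjusted p = 0.696), and Ctrl+FGF2 and Ctrl+vehicle overlapped. The knockdown lowered Lpl at d5 (-0.39 ± 0.10, adjusted p = 0.00789), with every Y/T dKD+FGF2 library below every Ctrl+FGF2 library. Without Y/T dKD+FGF2 replicate 3 the value was -0.32 with an adjusted p of 0.0521.

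Fabp4 (ENSMUSG00000062515.3, chr3:10204088-10208576) encodes the fatty acid binding protein of adipocytes, and some macrophages and endothelial cells also make it. At d2.5 it was at 25.1, 28.3 and 27.7 CPM in Ctrl+vehicle, at 32.7, 34.0 and 35.2 CPM in Ctrl+FGF2 and at 26.0, 26.1 and 28.0 CPM in Y/T dKD+FGF2. At d5 it was at 6.43, 9.67 and 7.45 CPM in Ctrl+vehicle, at 5.33, 3.91 and 5.39 CPM in Ctrl+FGF2 and at 4.25, 4.74 and 4.79 CPM in Y/T dKD+FGF2. Ctrl+FGF2 was highest at d2.5, and at d5 it lay below Ctrl+vehicle and overlapped Y/T dKD+FGF2. The FGF2 effect was 0.32 ± 0.06 (adjusted p = 6.62e-05) at d2.5 and -0.69 ± 0.17 (adjusted p = 0.00246) at d5, and the difference between the days was -1.04 ± 0.17 (adjusted p = 3.71e-06). The knockdown lowered Fabp4 at d2.5 (-0.35 ± 0.07, adjusted p = 0.000173), to a level that overlapped Ctrl+vehicle, while at d5 the knockdown effect was -0.09 ± 0.19 (adjusted p = 0.770). The endothelial marker Pecam1 moved the other way with FGF2 on each day (-1.55 and 1.40). Csf1r, which had more reads on the opposite strand than on its own, was lower at d2.5 (-2.57). The part of Pecam1 and Csf1r in the Fabp4 values was not tested.

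Plin2 (perilipin 2, which coats lipid droplets in many cell types, ENSMUSG00000028494.12, chr4:86648386-86670060) had the most reads of the 10 genes. At d2.5 it was at 126.5, 119.3 and 127.1 CPM in Ctrl+vehicle, at 115.9, 110.5 and 111.1 CPM in Ctrl+FGF2 and at 96.7, 99.5 and 94.7 CPM in Y/T dKD+FGF2. At d5 it was at 137.3, 157.6 and 144.4 CPM in Ctrl+vehicle, at 127.8, 144.5 and 145.6 CPM in Ctrl+FGF2 and at 220.9, 242.8 and 220.2 CPM in Y/T dKD+FGF2. The 3 groups were apart at d2.5, and at d5 the Ctrl groups overlapped below all Y/T dKD+FGF2 libraries. FGF2 lowered Plin2 slightly at d2.5 (-0.15 ± 0.04, adjusted p = 0.000924), and its effect at d5 was -0.06 ± 0.06 (adjusted p = 0.417). The knockdown lowered Plin2 at d2.5 (-0.22 ± 0.04, adjusted p = 0.000151) and raised it at d5 (0.70 ± 0.06, adjusted p = 3.41e-08), and the effects of the days differed by 0.92 ± 0.07 (adjusted p = 2.52e-10).

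Adipoq (adiponectin, secreted by mature fat cells, ENSMUSG00000022878.5, chr16:23146536-23158028), Cd36 (a fatty acid transporter, ENSMUSG00000002944.15, chr5:17781690-17888801) and Zfp423 (ENSMUSG00000045333.15, chr8:87661810-87959595) were too low to read in every group. Adipoq had 3 counts in the 18 libraries together, 1 in each of 3 libraries. Cd36 had 1 count, in a d2.5 Ctrl+vehicle library. Zfp423 had 6 counts in 5 libraries, with no library above 2. Over the 18 libraries a sum of 3 counts corresponds to 0.0134 CPM, and a group of 3 libraries at 0 counts allows a level of up to 3 counts, 0.0699 CPM in Ctrl+FGF2 at d2.5. No change in these 3 genes was detectable at this depth, and no fold is given.

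Levels of different genes were set side by side per kilobase of exon, with the bases of all annotated exons of a gene counted once. This length can exceed that of the RNA made, so the order is approximate. For Fabp4 it was 4489 bases, the whole span of the gene, and its level per kb may be too low. On this scale Plin2 and Cebpb led in every group. At d2.5 their mean levels were 35.4 and 33.9 CPM per kb in Ctrl+vehicle, and Cebpd (11.8), Fabp4 (6.03) and Pparg (5.96) followed. At d5 in Ctrl+vehicle the order was Plin2 (41.7), Cebpb (25.1), Cebpd (7.63), Pparg (4.88), Lpl (4.36), Fabp4 (1.75) and Cebpa (0.640 CPM per kb). The libraries of Plin2 and Cebpb overlapped in every group of d2.5, and so did those of Fabp4 and Pparg in Ctrl+vehicle at d2.5 and those of Pparg and Lpl in Ctrl+vehicle at d5. Cebpa stood below Pparg and both early C/EBP genes in every group.

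Of the 5 genes tested at d2.5, FGF2 raised Fabp4 and lowered Cebpd and Plin2, while Pparg and Cebpb were not called. In this comparison 33.5% of 13677 genes were called higher and 34.1% lower, so 1 and 2 of 5 are near the background. At d5, with 7 genes tested, FGF2 raised Cebpd, Pparg and Cebpb and lowered Cebpa and Fabp4. The background was 23.5% higher and 23.7% lower of 13304 genes, which is also not far from 3 and 2 of 7.

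With the knockdown at d2.5, all 5 genes tested were lower than in Ctrl+FGF2 and none was higher, where 13.6% of the genes tested were called lower and 10.8% higher. Their median log2 fold change was -0.33, beside 0.00 over all genes tested. At d5 the knockdown raised Plin2 and Cebpb and lowered Pparg, Lpl and Cebpd, while Cebpa and Fabp4 were not called. There 15.6% of genes were called higher and 16.1% lower, and the median of the 7 genes was -0.09, beside 0.00 over all genes. Since the FGF2 and the knockdown effects share the Ctrl+FGF2 libraries, their values are given side by side only.

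Against Ctrl+vehicle, the knockdown cells with FGF2 had lower Cebpd (-1.06 ± 0.06, adjusted p = 1.26e-15), Plin2 (-0.38 ± 0.04, adjusted p = 1.15e-09), Cebpb (-0.30 ± 0.06, adjusted p = 5.46e-05) and Pparg (-0.28 ± 0.09, adjusted p = 0.00874) at d2.5. Fabp4 was at -0.04 ± 0.07 (adjusted p = 0.638). The Pparg call was lost without Y/T dKD+FGF2 replicate 3 (-0.21, adjusted p = 0.0738) and with DESeq2 (adjusted p = 0.0512). The background was 35.7% lower and 34.1% higher. At d5 Cebpd (0.67 ± 0.10, adjusted p = 3.36e-05), Plin2 (0.64 ± 0.06, adjusted p = 6.10e-08) and Cebpb (0.63 ± 0.06, adjusted p = 1.87e-07) were higher than in Ctrl+vehicle, and Fabp4 (-0.78 ± 0.17, adjusted p = 0.00128) and Lpl (-0.44 ± 0.10, adjusted p = 0.00227) were lower, with 20.7% and 21.1% of genes called higher and lower. Pparg was at -0.22 ± 0.09 (adjusted p = 0.0664) and Cebpa at -0.42 ± 0.33 (adjusted p = 0.334).

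**Figure D2:**
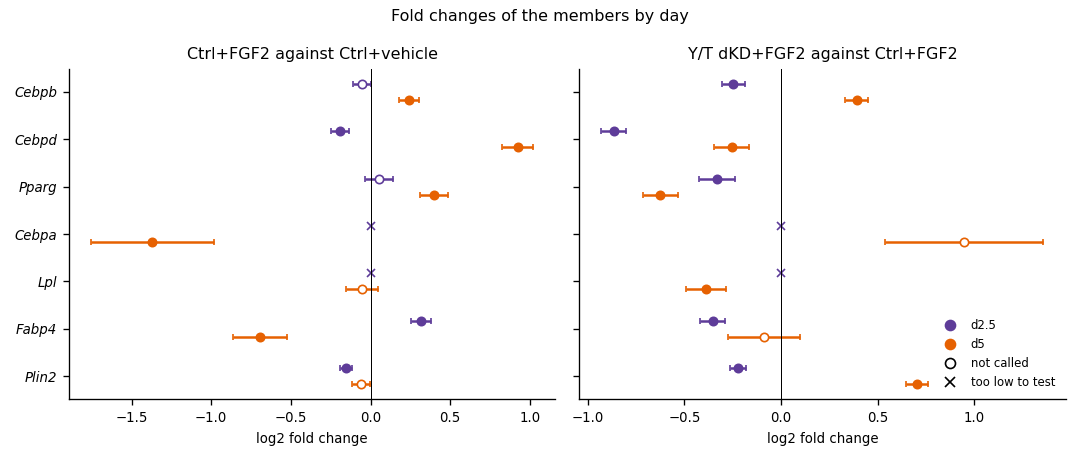
Log2 fold changes (points, with the SE as bars) of the FGF2 effect (left) and the knockdown effect (right) at d2.5 and d5, with open points for genes not called and crosses at 0 for genes too low to test. For the knockdown effect the 5 points of d2.5 lie left of 0, and Cebpb (0.39) and Plin2 (0.70) lie right of 0 at d5.

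The difference of the FGF2 effect between the days was called for 6 of 7 genes, against a background of 31.8% higher and 29.1% lower of 14198 genes. It was positive for Cebpd, Cebpb, Pparg and Lpl and negative for Fabp4 and Cebpa, and for Plin2 it was 0.07 ± 0.07 (adjusted p = 0.427). The values of Lpl (3.97 ± 1.03) and Cebpa (-2.01 ± 0.78) rest on the few reads of d2.5 and are not bounds. With DESeq2, 3 of the 6 were called, and Pparg (0.30, adjusted p = 0.139), Cebpb (0.24, adjusted p = 0.0556) and Cebpa (-2.06, adjusted p = 0.0699) were not. For Pparg (0.32 ± 0.12, adjusted p = 0.0260) the call was also lost without d2.5 Ctrl+FGF2 replicate 1 (adjusted p = 0.0879), d2.5 Ctrl+vehicle replicate 1 (0.0747), d5 Ctrl+FGF2 replicate 2 (0.0671) or d5 Ctrl+vehicle replicate 3 (0.0570). For Cebpa it was lost without d2.5 Ctrl+FGF2 replicate 3 (adjusted p = 0.102), d2.5 Ctrl+vehicle replicate 1 (0.0795) or d5 Ctrl+FGF2 replicate 2 (0.0517) or 3 (0.0576). The difference of the knockdown effect was called for Plin2, Cebpb and Cebpd, all positive, where 11.6% of genes were called higher and 9.35% lower.

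Between d2.5 and d5, Fabp4 fell in each group, with log2 fold changes of -1.77 ± 0.10 (Ctrl+vehicle), -2.81 ± 0.11 (Ctrl+FGF2) and -2.54 ± 0.12 for Y/T dKD+FGF2 (adjusted p = 2.24e-15, 4.21e-20 and 3.37e-18). Plin2 rose in each, by 0.24 ± 0.05, 0.31 ± 0.05 and 1.23 ± 0.05 in the same order (adjusted p = 0.000171, 3.91e-06 and 3.02e-19), and Lpl and Cebpa rose as given above. The early factors moved apart by group. Cebpb was at -0.43 ± 0.06, -0.16 ± 0.06 and 0.48 ± 0.06 (adjusted p = 7.83e-07, 0.0201 and 5.32e-08), and Cebpd at -0.63 ± 0.08, 0.46 ± 0.08 and 1.07 ± 0.09 (adjusted p = 1.66e-07, 3.60e-06 and 5.27e-12). Pparg fell in Ctrl+vehicle (-0.29 ± 0.09, adjusted p = 0.00666) and in Y/T dKD+FGF2 (-0.26 ± 0.10, adjusted p = 0.0182), and was at 0.04 ± 0.09 (adjusted p = 0.701) in Ctrl+FGF2. In all, 3 genes were higher and 4 lower at d5 in Ctrl+vehicle, with a background of 33.1% and 33.2%, 4 and 2 in Ctrl+FGF2, with 41.2% and 38.8%, and 5 and 2 in Y/T dKD+FGF2, with 40.3% and 38.1%. In Ctrl+FGF2 the Cebpb call was lost without d2.5 replicate 2 (adjusted p = 0.0996) or d5 replicate 2 (0.0892) or 3 (0.0639), and the Cebpa call (1.29 ± 0.52, adjusted p = 0.0239) without d5 replicate 1 (0.71, adjusted p = 0.283), d2.5 replicate 1 (0.0670) or d2.5 replicate 2 (0.0638) and with DESeq2 (0.0779). The Pparg call in Y/T dKD+FGF2 was lost without replicate 2 of d2.5 (-0.19, adjusted p = 0.0989) or of d5 (-0.19, adjusted p = 0.112).

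**Figure D3:**
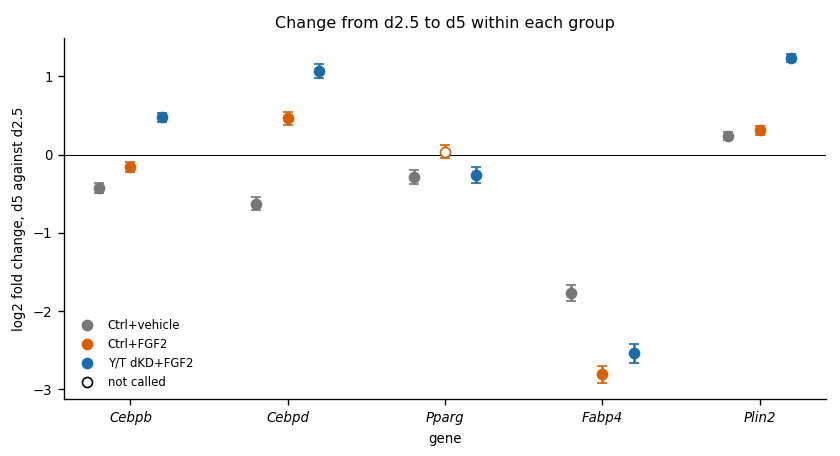
Log2 fold change from d2.5 to d5 within each group (points, SE as bars) for the 5 genes tested on both days, open where not called. Cebpb and Cebpd are below 0 in Ctrl+vehicle and above 0 in Y/T dKD+FGF2, and Fabp4 is below 0 in all 3 groups.

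The other genes of the pathway were read from lists by role. Over all genes tested, FGF2 raised 33.5% and lowered 34.1% at d2.5 and raised 23.5% and lowered 23.7% at d5, and the knockdown raised 10.8% and lowered 13.6%, then raised 15.6% and lowered 16.1%. Of the C/EBP list, 3 of 4 further genes were tested (Cebpg, Ddit3 and Cebpz, the last listed by its symbol only). All 3 were higher with FGF2 at d2.5 (33.5% of all genes) and lower at d5 (23.7%). Cebpg, a partner of the other C/EBP proteins, changed by 0.74 at d2.5 and -0.86 at d5, and Ddit3 (CHOP, which blocks C/EBP dimers) by 0.68 and -1.47. The median of these 3 was 0.68 at d2.5 and -0.86 at d5, beside 0.00 and 0.02 over all genes. For the knockdown, Cebpz was higher (0.16 ± 0.04, adjusted p = 0.00443) and Ddit3 lower (-0.29 ± 0.07, adjusted p = 0.00189) at d2.5, and none of the 3 was called at d5. The Cebpz call was lost without Y/T dKD+FGF2 replicate 3 (0.11, adjusted p = 0.0696), and the Ddit3 call in a fit of all 18 libraries (-0.28, adjusted p = 0.0579). Of 12 tested partners of PPARγ (of 14, such as retinoid X receptors and cofactors), FGF2 raised 4 and lowered 5 at d2.5, raised 5 and lowered 1 at d5, and the knockdown raised 0 and lowered 3, then raised 1 and lowered 2. For FGF2 at d2.5 these counts are near the 33.5% and 34.1% of all genes. Prdm16, a cofactor of brown fat, was higher with FGF2 on both days (1.18 and 0.78), and Rxra, the main partner of PPARγ, was lower with the knockdown at d5 (-0.30 ± 0.05, adjusted p = 6.66e-05).

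Of 11 tested factors that promote adipogenesis (of 12), FGF2 raised 2 and lowered 5 at d2.5 (background 33.5% and 34.1%) and raised 4 and lowered 2 at d5 (23.5% and 23.7%). The knockdown raised 1 and lowered 1 at d2.5 (10.8% and 13.6%) and raised 4 and lowered 5 at d5 (15.6% and 16.1%). Ebf1 and Klf15, both transcription factors that act with the C/EBP cascade, were higher with FGF2 at d5 (0.70 for each) and lower with the knockdown (-1.66 ± 0.19 and -1.20 ± 0.08, adjusted p = 3.41e-06 and 7.17e-09). Of the factors that hold adipogenesis back, 12 of 14 were tested at d2.5 and 14 at d5. FGF2 raised 5 and lowered 5, then raised 4 and lowered 3, and the knockdown raised 3 and lowered 3, then raised 5 and lowered 5, with the same backgrounds. Wnt10b, a Wnt ligand that blocks fat formation, was higher with the knockdown at d5 (1.63 ± 0.19, adjusted p = 2.76e-06), and Hes1, a Notch target, changed with FGF2 by 1.45 at d2.5 and -1.45 at d5.

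Of 23 products of the fat cell, 9 were tested. At d2.5 FGF2 raised 1 and lowered 6 (background 33.5% and 34.1%), with a median log2 fold change of -0.66 beside 0.00 over all genes. At d5 it raised 5 and lowered 2 (23.5% and 23.7%), with a median of 0.60 beside 0.02. The summed level of the 23 products was nevertheless lower with FGF2 at d5, at 313.6 to 318.5 CPM against 390.7 to 405.7 CPM in Ctrl+vehicle. Of the genes lowered that day, Fabp5 was at -1.88 ± 0.05 (adjusted p = 3.97e-14). The knockdown raised 0 and lowered 6 at d2.5 (median -0.31, background 10.8% and 13.6%) and raised 1 and lowered 4 at d5 (median -0.21, background 15.6% and 16.1%). Plin4, a perilipin of nascent droplets, was lower with FGF2 at d2.5 (-1.54 ± 0.11, adjusted p = 6.56e-14) and lower with the knockdown on both days (-0.75 ± 0.15 and -2.32 ± 0.10, adjusted p = 0.000407 and 8.94e-12), where Plin2 was higher at d5. Of 22 genes of general lipid handling, 20 were tested. FGF2 raised 6 and lowered 14 at d2.5 (median -0.34) and raised 9 and lowered 6 at d5 (median 0.08), and the knockdown raised 3 and lowered 10 (median -0.20), then raised 7 and lowered 7 (median -0.01), against the same backgrounds of 33.5% and 34.1%, 23.5% and 23.7%, 10.8% and 13.6%, and 15.6% and 16.1%. Angptl4, a secreted inhibitor of lipoprotein lipase, was higher with FGF2 at d2.5 (2.54 ± 0.28, adjusted p = 1.81e-09) and higher with the knockdown at d5 (0.97 ± 0.15, adjusted p = 7.19e-05). Lpl was lower with the knockdown at d5, and a link between Angptl4 and Lpl RNA was not tested.

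Of 10 markers of adipose progenitors, 5 were tested. FGF2 raised 2 and lowered 3 at d2.5 and raised 2 and lowered 2 at d5, and the knockdown lowered 1 at d2.5 and raised 1 and lowered 3 at d5. With FGF2 at d2.5 this is near the 33.5% and 34.1% of all genes. The shares raised and lowered were 23.5% and 23.7% for FGF2 at d5. For the knockdown they were 10.8% and 13.6% at d2.5 and 15.6% and 16.1% at d5. The 5 genes went in different directions. Cd34, a surface marker of stromal progenitors, was higher with FGF2 on both days (0.90 and 1.18) and lower with the knockdown at d5 (-1.68 ± 0.14, adjusted p = 7.23e-08). Pdgfrb, a receptor of perivascular progenitors, was lower with FGF2 at d2.5 (-0.88, adjusted p = 1.02e-17), and F3 (tissue factor) was higher with the knockdown at d5 (0.92, adjusted p = 3.44e-09). Pdgfra was lower with FGF2 at d2.5 (-0.45) and higher at d5 (0.69), and Ly6a was lower with the knockdown at d2.5 (-0.74) and d5 (-0.20).

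**Figure D4:**
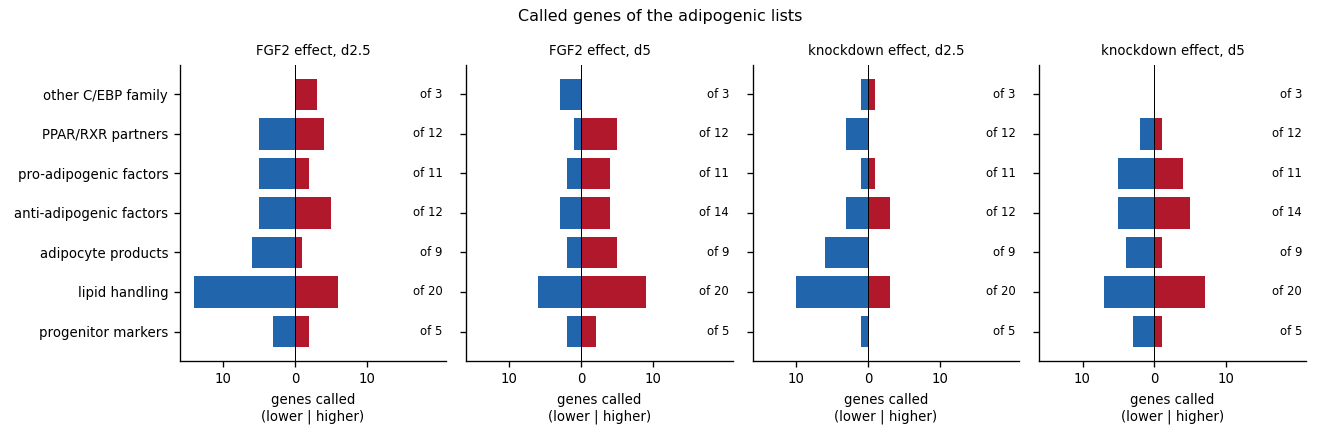
Number of genes called higher (right bars) and lower (left bars) in 7 lists of the adipogenic pathway for the FGF2 and knockdown effects at d2.5 and d5, with the number tested at the right. The lipid handling list has 14 lower and 6 higher with FGF2 at d2.5 and 6 lower and 9 higher at d5.

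The genes whose profile over the 6 group means was most like those of the 5 members tested on both days were found among 11700 genes tested on both days, by the root mean square distance of centred log2 levels. For Pparg they were Sh3glb2 (0.05), Entpd6 (0.07) and Stk11 (0.08), and for Cebpb Gpn2 (0.06), Gpaa1 (0.08) and Commd4 (0.08). Plin2 was nearest to Mex3b (0.07), Gm7160 (0.12) and Zfp346 (0.12), Cebpd to Lzts2 (0.15), Wbp1 (0.17) and Pold4 (0.17), and Fabp4 to Cep126 (0.16), Sox11 (0.19) and Ncapd2 (0.22). None of these 5 was among the 3 nearest genes of another.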

How the data were processed

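Poly(A) RNA of O9-1 cells was extracted and sequenced from 18 libraries. Per the labels, the authors' processing tools were FastQC, STAR, Picard and featureCounts, with build mm10, without versions or roles. The deposited values are raw counts per gene, unstranded and for each strand, without normalization. Of the strand columns, the one with 96.0% to 96.6% of the reads was used. Reads not assigned to a single gene (27.0% to 34.4% of a library) were left out. Positions and exon lengths came from GENCODE M21 (GRCm38). Symbols came from a list of gene names, which held 55154 of 55335 identifiers.

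The test was the quasi-likelihood test of edgeR 4.0.16 (R 4.3.3) after TMM scaling and filterByExpr, per day over 9 libraries with group as the only term, and over all 18 libraries for differences between days. Benjamini-Hochberg adjustment ran over all genes tested. SEs are the size of the log2 fold change over the root of the F statistic. Genes removed by the filter were not tested, and a gene was too low to read in a group where every library had fewer than 10 counts. Alternatives included DESeq2 1.42.0, other scalings, filters and thresholds, unstranded counts, a replicate block and leaving out each library. The fit was tested on simulated data with 2-fold changes, at an adjusted p under 0.05. It recovered 88.3% to 92.9% of the changed genes, and 5.70% to 8.47% of its calls were false. Smaller changes were not simulated. No 2 replicates agreed within sampling noise (chi-square per degree of freedom 1.25 to 6.41 over 18 pairs). Named were all 10 members, both siRNA targets, markers, the 3 nearest profiles, and from each list the 2 called genes with the largest change in a comparison (mean log2 CPM of at least 1), of which a part is printed. The members and lists were chosen with earlier results of these data known.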

Additional observations from a re-analysis of the deposited data

Results flagged for a closer look

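The effects of FGF2 at d2.5 and d5 differed for 6 genes, by a test of the difference itself in all 18 libraries (edgeR). In that test 31.8% of 14198 genes were called higher and 29.1% lower. The log2 difference (d5 minus d2.5) was 1.09 for Cebpd, 0.32 for Pparg, 0.27 for Cebpb, 3.97 for Lpl, -1.04 for Fabp4 and -2.01 for Cebpa. The values of Lpl and Cebpa rest on the few reads of d2.5. With DESeq2 the calls of Pparg (adjusted p = 0.139), Cebpb (0.0556) and Cebpa (0.0699) were lost. Cebpd and Fabp4 were called in opposite directions on the 2 days. The knockdown effects differed for Plin2 (0.92), Cebpb (0.64) and Cebpd (0.61), where 11.6% of genes were called higher and 9.35% lower. Plin2 and Cebpb were called lower under the knockdown at d2.5 and higher at d5. The days are also the batches of the labels, and day and batch cannot be told apart.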

How the results depend on the processing

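Of 3145 values of single genes under an alternative, 2996 kept their direction and side of the threshold, 141 lost a call, 3 gained one and 5 changed sign. Of 255 counts of called members, 244 stayed within 1.5 times the main count. With the replicate number as a block, 3, 5, 5 and 5 members were called for FGF2 at d2.5 and d5 and for the knockdown at d2.5 and d5, as without it, and Cebpb in Ctrl+FGF2 between the days lost its call (-0.05, adjusted p = 0.567), as did Pparg in Ctrl+vehicle (-0.25, adjusted p = 0.0865) and in Y/T dKD+FGF2 (-0.23, adjusted p = 0.123). Same-numbered samples correlated between -0.102 and 0.258, so the numbers are not taken as pairs. A change of at least 2-fold left 0 of 3 and 1 of 5 members for FGF2 at d2.5 and d5, 0 of 5 for the knockdown on each day, 1 of 4 and 0 of 5 for the knockdown cells against Ctrl+vehicle, 0 of 3 for the knockdown difference between days, and 3 of 7 and 3 of 6 between the days in Ctrl+vehicle and Ctrl+FGF2. Over all genes that threshold left between 81 and 4550 calls, and an adjusted p under 0.01 left 2057 of 3345 for the knockdown at d2.5 and 1781 of 2973 for its difference between days. DESeq2 called 3 members for the FGF2 difference between days in place of 6. On leaving out 1 library, between 3 and 5 members were called for the knockdown at d5, 4 to 5 at d2.5, 3 and 5 for FGF2 at d2.5 and d5, and 4 to 6 for the FGF2 difference. Without Y/T dKD+FGF2 replicate 3, Cebpd and Lpl were the genes lost at d5. The 4 values that changed sign on leaving out 1 library were never called. These were Fabp4 in the knockdown cells against Ctrl+vehicle at d2.5 (-0.091 to 0.0011, highest without Ctrl+vehicle replicate 2), Lpl for FGF2 at d5 (-0.16 to 0.046, above 0 without Ctrl+FGF2 replicate 1, and at 0.020 without Ctrl+vehicle replicate 2), Pparg for FGF2 at d2.5 (-0.0029 to 0.12, lowest without Ctrl+FGF2 replicate 3) and Pparg in Ctrl+FGF2 between the days (-0.040 to 0.083, lowest without d2.5 replicate 1). The Lpl difference of the knockdown effect (-3.12, adjusted p = 0.0874) passed the threshold with DESeq2 (0.0421) and with no filter (0.0250). Except where the alternative itself uses fewer samples or a stricter threshold, the cause was not tested. The low counts of Cebpa, and of Lpl at d2.5, limit what depth can show.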
